A study of Mus musculus with 308 samples.

Results

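The genes described here are a module of 43 cell cycle and DNA replication genes, followed in 7 tissues of mice given fumarate esters. Members were chosen by symbol: a probe set (a group of probes on the array that read 1 transcript) belonged to the module when the only gene symbol given for it was a listed one. Of the 43 genes, 42 had such a probe set and Ccnb1 had none. The 42 genes were read by 77 of 45141 probe sets, and they are 42 of 17097 genes measured. The study profiled total RNA of C57BL/6 mice on 308 Affymetrix HT MG-430 PM arrays, with the same sample numbers used in each tissue.

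Apart from a group labelled Nav, whose treatment is not explained in the sources used here, the groups were dosed each day for 10 days, and organs were collected 12 h after the final dose. The design text does not name kidney, whose arrays carry the same group labels. Dimethyl fumarate (DMF) was given at 100 mg/kg (DMF100) or 179.2 mg/kg (DMF179.2). Salts of monoethyl fumarate (MEF) with calcium, magnesium and zinc were given at 79.2 mg/kg (MEF79.2). The combination group received both the DMF100 and the MEF79.2 dose. Vehicle mice received 0.8% hydroxypropyl methylcellulose. Age and sex are not stated in the labels. Groups held 5 to 8 arrays per tissue, and that number limits the precision. The titles number the samples, but no label states that they come from separate animals, so p-values measure the spread between these arrays only.

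Cells that divide first license their origins of replication by loading the MCM helicase, then copy DNA in S phase, then condense and separate chromosomes in mitosis. E2F transcription factors drive the genes of S phase entry, and a later wave that includes FOXM1 and B-MYB drives the genes of mitosis. In adult mice the spleen still makes red cells from dividing precursors, lymph nodes hold dividing lymphocytes, intestinal crypts divide throughout life, and most kidney tubule cells rest.

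Promoters are shown for 6 members because the S phase and mitotic genes are known for different promoter elements. Stretches of 200 bases just upstream of the annotated start are from RefSeq, build GRCm38.p6, written 5′ to 3′ on the gene's strand. Capitals mark 3 motifs searched on both strands: the E2F site as TTTGGCGC or TTTCGCGC, the cell cycle homology region (CHR) as TTTGAA, and the CCAAT box. Where 2 E2F matches on opposite strands overlap, as in Mcm6 and Mcm5, the capitals run over both.
Mcm6: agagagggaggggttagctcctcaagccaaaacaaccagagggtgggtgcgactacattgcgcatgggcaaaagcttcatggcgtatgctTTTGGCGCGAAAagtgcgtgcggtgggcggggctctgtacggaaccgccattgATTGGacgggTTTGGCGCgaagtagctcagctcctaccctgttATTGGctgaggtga
Mcm5: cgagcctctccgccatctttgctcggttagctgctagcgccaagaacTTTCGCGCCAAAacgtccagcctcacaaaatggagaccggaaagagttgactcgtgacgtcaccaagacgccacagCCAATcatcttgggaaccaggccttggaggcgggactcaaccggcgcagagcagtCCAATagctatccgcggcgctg
Cdk1: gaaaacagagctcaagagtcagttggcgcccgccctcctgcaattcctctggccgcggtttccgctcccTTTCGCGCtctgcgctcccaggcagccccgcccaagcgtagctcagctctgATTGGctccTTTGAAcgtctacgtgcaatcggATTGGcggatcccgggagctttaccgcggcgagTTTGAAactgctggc
Ccnb2: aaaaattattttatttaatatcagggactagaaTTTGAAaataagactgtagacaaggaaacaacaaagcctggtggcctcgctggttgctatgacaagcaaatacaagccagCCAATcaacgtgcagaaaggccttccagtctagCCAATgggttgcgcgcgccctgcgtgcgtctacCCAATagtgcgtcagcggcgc
Mki67: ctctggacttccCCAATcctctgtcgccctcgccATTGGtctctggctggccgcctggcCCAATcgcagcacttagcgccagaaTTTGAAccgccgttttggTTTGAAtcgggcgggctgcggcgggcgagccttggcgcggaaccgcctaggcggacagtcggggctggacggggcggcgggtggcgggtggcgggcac
Cdc20: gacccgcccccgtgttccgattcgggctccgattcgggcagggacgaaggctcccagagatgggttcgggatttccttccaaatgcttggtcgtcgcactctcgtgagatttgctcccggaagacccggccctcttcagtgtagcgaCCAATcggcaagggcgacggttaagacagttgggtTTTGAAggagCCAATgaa
Mcm6 lies at chr1:128359706-128359905 and Mcm5 at chr8:75109309-75109508, and both code for subunits of the MCM helicase. Cdk1, the kinase that starts mitosis, lies at chr10:69352913-69353112 and Ccnb2, a cyclin that activates it, at chr9:70421555-70421754. Mki67, which codes for the proliferation antigen Ki-67, lies at chr7:135716380-135716579 and Cdc20, an activator of the anaphase-promoting complex, at chr4:118437344-118437543. Mcm5 is on the plus strand and the other 5 are on the minus strand. In the 250 bases upstream of the start, 4 of 37 windows of members held the E2F letters (10.8%), against 215 of 32851 windows of all genes (0.654%). The 4 were Mcm5, Mcm6, Cdk1 and Uhrf1. The CCAAT box was found in 25 of 37 windows (67.6%), against 33.8% of all windows, and TTTGAA in 8 of 37 (21.6%), against 16% of all windows. Windows were found for 35 of the 43 listed genes. A match describes these letters only.

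How many members were measurable differed between tissues. Testing in a tissue required a signal above that tissue's median in at least 5 arrays. That held for 41 of 42 members in spleen, 40 in jejunum, 40 in mesenteric lymph node, 39 in inguinal lymph node, 35 in blood, 21 in kidney and 14 in brain. In jejunum 40 members lay above the median in every array, and in brain 11 did. Tissues were normalized apart, so levels are not compared between them. Within a tissue, marker lists were given as their mean in vehicle arrays beside the median signal of all arrays of the tissue. The enterocyte list averaged 13.37 in jejunum, where the median signal was 4.89, and the proximal tubule list averaged 11.18 in kidney, where it was 5.10. The B cell list averaged 11.05 in spleen (median signal 5.48), 10.82 in inguinal node (5.44), 10.17 in mesenteric node (5.24) and 9.92 in blood (3.38). No marker list was made for brain.

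**Figure D1:**
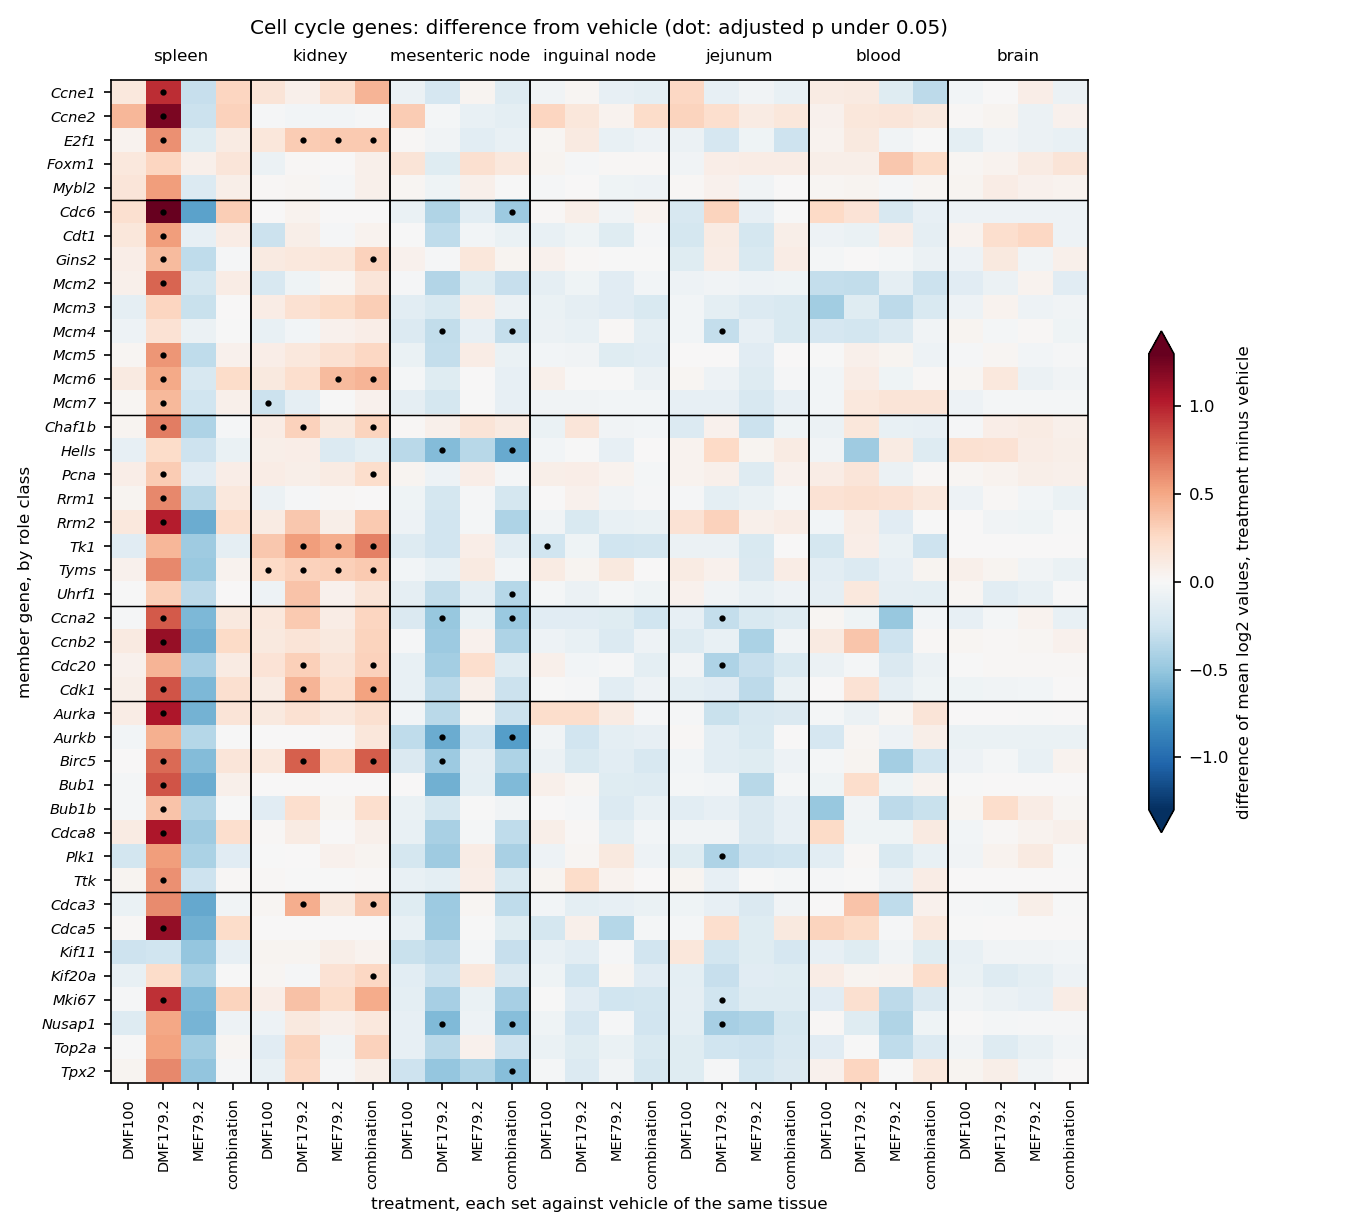
Difference of mean log2 values from vehicle for the 42 measured genes (down the page, in 6 role classes) in each tissue and treatment (across). Red is higher and blue is lower than vehicle, and a dot marks an adjusted p under 0.05. The DMF179.2 column of spleen is red for 41 of 42 genes, and the same column of mesenteric lymph node is blue for 41 of 42.

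In spleen, DMF179.2 raised genes of every stage of the cycle. Of the 42 members, 25 rose and 0 fell at an adjusted p under 0.05 (limma, Benjamini-Hochberg over all genes tested), where 24.4% of all genes tested were called and 16.9% rose. The median difference of the 42 was 0.58 on the log2 scale, against 0.00 over all 17097 genes, and 41 of 42 were higher. The regulators and licensing genes gave 10 of the 25 calls: 3 of 5 regulators of S phase entry and 7 of 9 licensing and helicase genes. A further 4 of 8 DNA synthesis genes, 3 of 4 mitotic cyclin and CDK1 genes, 6 of 8 mitotic kinase genes and 2 of 8 spindle and chromosome genes rose. No member separated the 8 DMF179.2 arrays fully from the 8 vehicle arrays, which 1.73% of all genes tested did. The count was 15 without DMF179.2 replicate 22 or without vehicle replicate 8, and 34 without vehicle replicate 7, and 15 of the 25 calls were kept with any 1 array left out.

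Ccne2, cyclin E2, which drives entry into S phase, spanned 7.42 to 8.96 with a median of 8.54 in DMF179.2 spleens, against 6.72 to 7.97 with a median of 6.91 in vehicle spleens. Of the 8 DMF179.2 values 5 lay above every vehicle value, and the difference was 1.22 ± 0.28 (SE, adjusted p = 0.00318). E2f1, an activating E2F factor, spanned 7.93 to 8.65 (median 8.23) in DMF179.2 and 7.01 to 8.15 (median 7.68) in vehicle, a rise of 0.59 (adjusted p = 0.0155). Cyclin E1, Ccne1, rose by 0.96. Foxm1 at 0.28 did not pass the test, and Mybl2, the gene of B-MYB, was too low to be tested.

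Among licensing genes, Cdc6, which loads the helicase, had the largest difference of the module. It ran from 8.80 to 9.95 (median 9.35) in DMF179.2 spleens and from 7.01 to 9.15 (median 7.58) in vehicle spleens, a difference of 1.57 ± 0.41 (SE, adjusted p = 0.00621). Its partner Cdt1 had the smallest adjusted p of the class, 0.00319. Cdt1 spanned 10.58 to 11.04 (median 10.85) in DMF179.2 and 10.11 to 10.60 (median 10.26) in vehicle, a difference of 0.55, with 7 of 8 DMF179.2 values above the vehicle range. The helicase subunit Mcm5 spanned 8.92 to 9.47 (median 9.15) in DMF179.2 and 8.27 to 9.19 (median 8.45) in vehicle, a rise of 0.58 (adjusted p = 0.0187). Mcm2, Mcm6, Mcm7 and the helicase partner Gins2 rose by 0.41 to 0.76, and Mcm3 at 0.27 and Mcm4 at 0.19 did not pass.

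For DNA synthesis, Rrm2, a subunit of the ribonucleotide reductase that makes deoxynucleotides, spanned 8.60 to 9.93 (median 9.38) in DMF179.2 and 7.26 to 9.55 (median 8.13) in vehicle. Its difference was 1.02 ± 0.34 (SE, adjusted p = 0.0272), with 4 of 8 DMF179.2 values above the vehicle range. Chaf1b, a subunit of the factor that places histones on new DNA, rose by 0.66 (adjusted p = 0.0108). Pcna, the sliding clamp of the DNA polymerases, spanned 11.98 to 12.43 (median 12.14) in DMF179.2 and 11.67 to 12.16 (median 11.75) in vehicle, a smaller rise of 0.33 (adjusted p = 0.0142). Rrm1 also rose, by 0.62, and Tyms, Tk1, Uhrf1 and Hells at 0.24 to 0.62 did not pass.

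Of the mitotic genes, Ccnb2 spanned 9.04 to 10.15 (median 9.30) in DMF179.2 spleens and 7.25 to 9.72 (median 8.08) in vehicle spleens, a rise of 1.13 (adjusted p = 0.0186). Cdca8, part of the chromosomal passenger complex, rose by 1.05 (adjusted p = 0.00923), and the spindle kinase Aurka rose by 1.05 (adjusted p = 0.0334). Cdca5, sororin, which protects the cohesion of sister chromatids, spanned 8.07 to 9.24 (median 8.68) in DMF179.2 and 6.90 to 8.36 (median 7.31) in vehicle. With 7 of 8 DMF179.2 values above the vehicle range, its difference was 1.14 ± 0.27 (SE, adjusted p = 0.00371). Mki67 spanned 11.25 to 12.33 (median 11.70) in DMF179.2 and 9.78 to 11.96 (median 10.66) in vehicle, a rise of 0.94 (adjusted p = 0.0247). Top2a, the topoisomerase that untangles chromosomes, was higher by 0.52 and missed the threshold (adjusted p = 0.0554). The spindle motor Kif11 was the 1 member with a lower mean, at -0.26 (adjusted p = 0.41), while a second probe set of Kif11 was higher by 1.00.

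**Figure D2:**
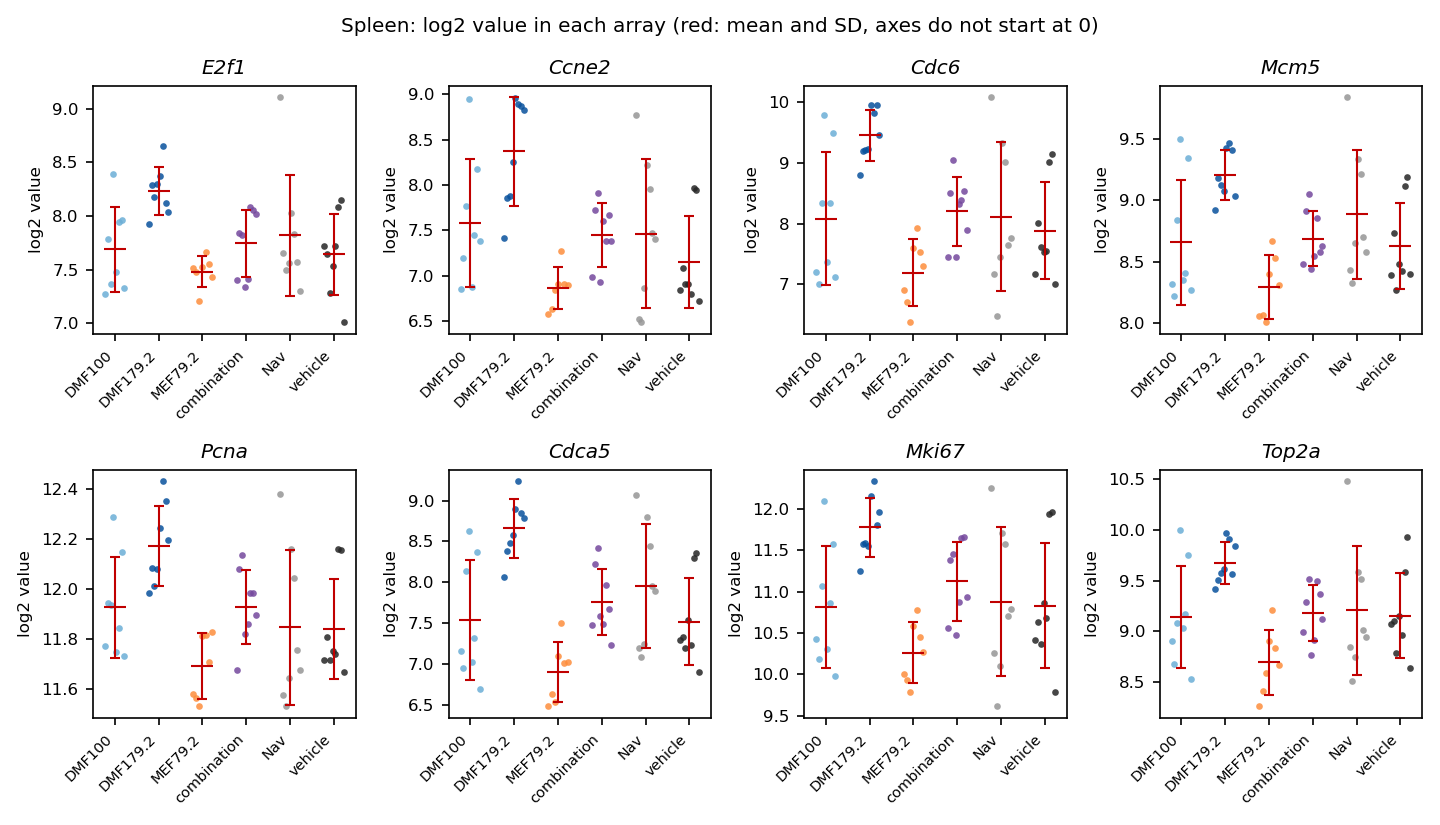
Log2 value of 8 members in each spleen array, by group, with the group mean and SD in red. In each panel the DMF179.2 mean is the highest of the 6, and a few vehicle arrays reach into the DMF179.2 range.

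Other genes of the pathway were counted in the same comparison, where 24.4% of all genes tested were called and 16.9% rose. Of 43 other mitosis genes 26 rose and 0 fell, among them Racgap1 (0.71), Incenp (0.87), Hmmr (1.46) and Cenpe (0.97), which act at the central spindle, the passenger complex, the spindle and the kinetochore. Of 32 other replication genes 21 rose and 0 fell, among them Timeless (0.68), Rfc4 (0.69), Mcm10 (1.21) and Brca1 (1.20), genes of fork protection, clamp loading, fork assembly and repair. Of 17 genes of the G1 cyclins, their kinases and the retinoblastoma family 5 rose, a share nearer to that of all genes. Among them were Cdk6 at 0.33, Cdk2 at 0.19, E2f8 at 1.03 and Ccnd3 at 0.39. Of 16 CDK inhibitor and p53 target genes only Gadd45b, a stress-induced growth arrest gene, changed, and it fell by 0.62.

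Markers of red cell precursors moved with the module in spleen. Of 15 such markers measured 11 rose and 0 fell under DMF179.2, with a median difference of 1.67. Tfr2 (2.41), Ank1 (2.29), Tal1 (1.91) and Klf1 (2.28) had the smallest adjusted p. The mean of the list ran from 8.95 to 10.25 in DMF179.2 spleens and from 6.17 to 9.64 in vehicle spleens, and no marker of the list was at the tissue's lowest value throughout. Within each of the 6 spleen groups, of 7 or 8 arrays, the mean of the 42 members followed the mean of the 15 markers. Pearson's r was 0.88 to 0.96, and 0.75 to 0.99 without the 2 arrays farthest from the median. All these values come from the same arrays, with no other source for either list. Fitted with the marker mean as a covariate, a fit chosen after seeing the data, none of the 25 members stayed called. Their differences then ran from -0.09 for Ccna2 to 0.47 for Ccne2. In that fit 1 member was called, Kif11, which fell by 0.69 (adjusted p = 0.0289). The marker mean was itself higher under DMF179.2 and followed the members, so a loss of calls was likely beforehand. The fit therefore cannot decide what raised the members. In bulk RNA, more cells of a type and more RNA per cell cannot be told apart.

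**Figure D3:**
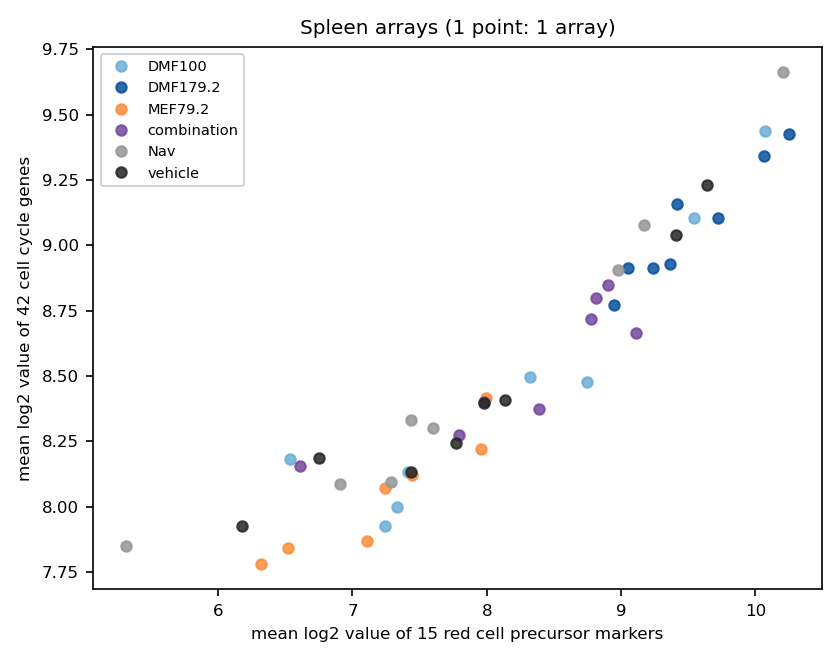
Mean log2 value of the 42 members (up) against that of 15 red cell precursor markers (across), 1 point per spleen array, coloured by group. The points of all groups lie along 1 band, with DMF179.2 arrays at 8.95 to 10.25 on the marker axis and MEF79.2 arrays at 6.32 to 7.99.

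Other marker lists were counted in the same spleen comparison, where 24.4% of all genes tested were called and 16.9% rose. Of 10 B cell markers 3 fell (Cr2 by 0.24, Spib by 0.26 and Cd79b by 0.11). C1qa of 10 macrophage markers fell by 0.32, and Irf4 of 5 plasma cell markers fell by 0.22. Aqp1, listed for the proximal tubule but also made by red cells, rose by 1.09. Of 7 T cell, 7 germinal centre, 11 neutrophil and 6 megakaryocyte markers none was called. The difference between 3′ and 5′ control probe sets, a sign of RNA quality, averaged 1.39 ± 0.11 in DMF179.2 spleens and 1.20 ± 0.07 in vehicle spleens (SD, n = 8 each, two-sided exact permutation p = 0.00218, adjusted p = 0.0127 over 70 such comparisons). Its part in the result was not tested. A second probe set above the tissue's median signal gave the same sign in 16 of 18 cases. The exceptions were Kif11 and Hells (0.24 in the probe set used and -0.15 in the other), and a low probe set of Top2a was at -0.03.

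The other treatments gave 0 calls among members in spleen, where 0.834% of all genes tested were called under DMF100, 0% under MEF79.2 and 0.0284% under the combination. Under DMF100 and the combination the median differences were 0.03 and 0.07, with 0 members at an unadjusted p under 0.05 in either. Under MEF79.2, 41 of 42 members were lower than vehicle, with a median of -0.41. There 15 members had an unadjusted p under 0.05 and none passed the adjustment (smallest adjusted p = 0.9). Mki67 ran from 9.79 to 10.78 (median 10.28) in MEF79.2 spleens and from 9.78 to 11.96 (median 10.66) in vehicle spleens, so that the MEF79.2 values lay within the vehicle range. The red cell precursor list averaged 7.23 in MEF79.2 and 7.91 in vehicle.

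**Figure D4:**
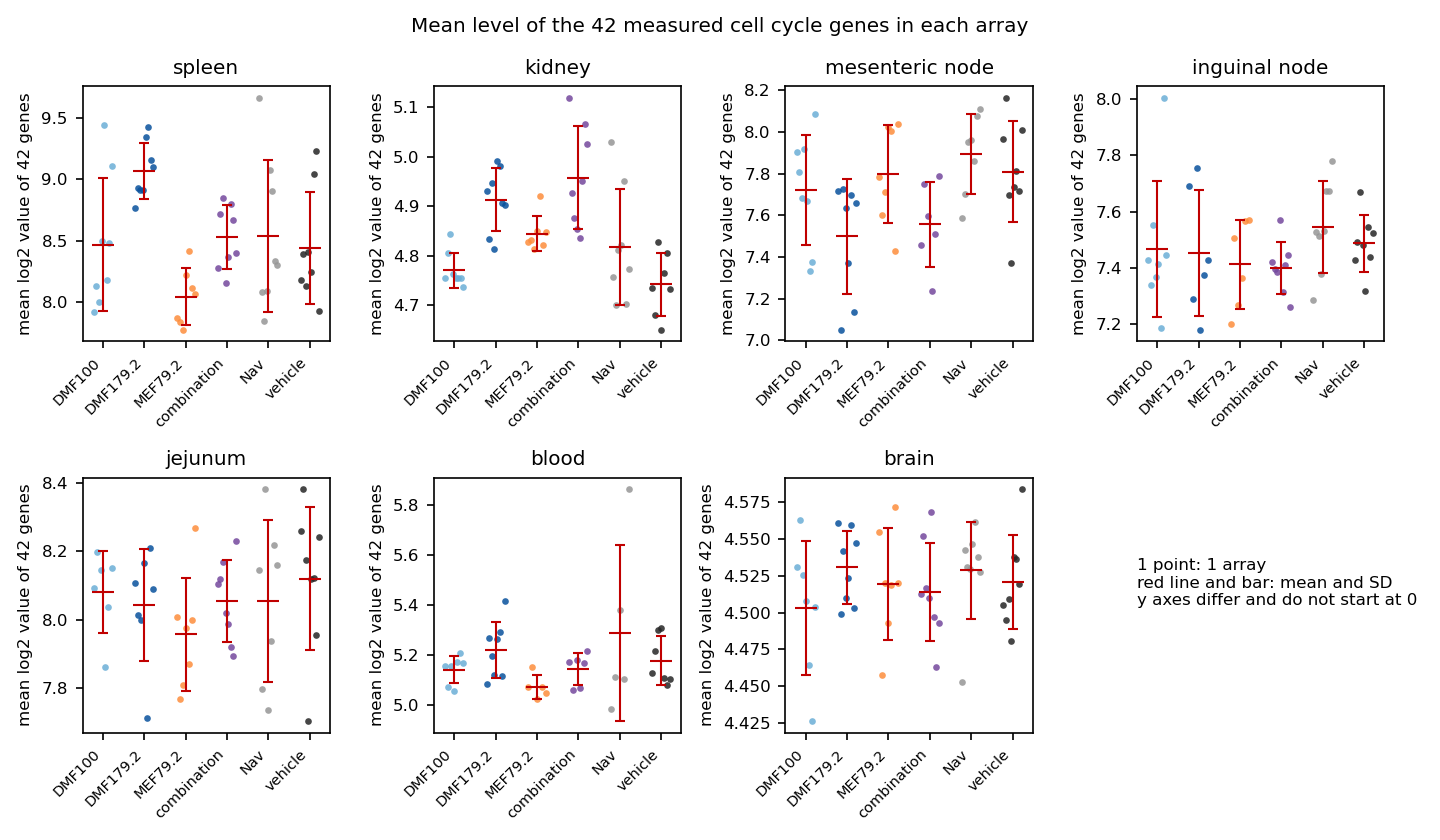
Mean log2 value of the 42 members in each array, by tissue and group, with the group mean and SD in red, on axes that differ between tissues. DMF179.2 spleens lie at 8.77 to 9.42 against 7.93 to 9.23 for vehicle, and combination kidneys at 4.84 to 5.12 against 4.65 to 4.83 for vehicle.

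In kidney the combination gave the widest response of the 4 treatments. Tyms was called higher under all 4, and in the Nav group of unknown treatment, against the same 7 vehicle arrays. Under the combination 12 of 42 members rose and 0 fell, where 17.7% of all genes tested rose. The median difference was 0.21, against 0.00 over all genes, and 40 of 42 members were higher. Only 21 of the 42 members could be tested in kidney, and of the mitotic kinase genes 1 of 8 could. Calls were 1 of 5 regulators, 2 of 9 licensing genes, 4 of 8 synthesis genes, 2 of 4 mitotic cyclin and CDK1 genes, 1 of 8 mitotic kinase genes and 2 of 8 spindle genes. The mean of all 42 members did not overlap between combination and vehicle kidneys.

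Tyms, thymidylate synthase, spanned 9.19 to 9.44 (median 9.37) in combination kidneys and 8.79 to 9.16 (median 8.97) in vehicle kidneys. These ranges do not overlap, and the difference was 0.34 ± 0.06 (SE, adjusted p = 1.69e-05). Mcm6 did not overlap either, with 7.61 to 8.03 (median 7.94) in the combination and 7.35 to 7.56 (median 7.45) in vehicle, a difference of 0.44 ± 0.09 (SE, adjusted p = 0.000415). Ccne1, also without overlap, lay below the level for testing, at 3.995 to 4.92 in the combination and 3.75 to 3.94 in vehicle. Of all genes tested 4.67% did not overlap.

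The thymidine kinase Tk1, which recycles thymidine, spanned 5.79 to 6.77 (median 6.43) in combination kidneys and 5.05 to 6.30 (median 5.82) in vehicle kidneys, a rise of 0.65 (adjusted p = 0.000693). E2f1 spanned 5.40 to 5.90 (median 5.71) in the combination and 5.19 to 5.57 (median 5.36) in vehicle, with 7 of 8 combination values above the vehicle range and a rise of 0.34 (adjusted p = 0.000303). Pcna rose by 0.23 (adjusted p = 0.00012) and Gins2 by 0.30 (adjusted p = 0.000188). Birc5, survivin, part of the passenger complex, had the largest difference. It spanned 6.07 to 7.40 (median 6.71) in the combination and 5.55 to 6.56 (median 5.72) in vehicle, a rise of 0.78 ± 0.19 (SE, adjusted p = 0.00235).

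Cdk1 rose by 0.53 (adjusted p = 0.00257), Kif20a, a motor of cell division, by 0.27 (adjusted p = 0.00412), and Cdca3, a trigger of entry into mitosis, by 0.35 (adjusted p = 0.0336). The Cdca3 call was kept in 8 of 15 fits with 1 array left out, and without combination replicate 32 its difference was 0.23 (adjusted p = 0.108). Cdc20 rose by 0.30 (adjusted p = 0.000552), but 19 of 46 kidney arrays shared its value of 5.07 and it lay close to the level for testing. Cdk1 and Cdc20 did not exceed that level on average over the kidney arrays. Both were tested only because at least 5 arrays lay above it. Mki67 was higher by 0.48 and missed the threshold (adjusted p = 0.0534), as did Top2a at 0.30 (adjusted p = 0.202). Mcm5 was near the lowest signal, at 2.65 to 3.18 in the combination and 2.22 to 2.65 in vehicle, and was not tested.

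DMF179.2 raised 8 of 42 members in kidney and lowered 0, where 10.6% of all genes tested rose, with a median difference of 0.13 and 35 of 42 higher. Tyms spanned 9.13 to 9.50 (median 9.31) in DMF179.2 and 8.79 to 9.16 (median 8.97) in vehicle, a rise of 0.30 (adjusted p = 0.000146). Tk1 rose by 0.55 (adjusted p = 0.00609), E2f1 by 0.33 (adjusted p = 0.000695), Cdc20 by 0.31 (adjusted p = 0.0007) and Cdk1 by 0.45 (adjusted p = 0.0154). The limit given above for Cdc20 and Cdk1, tested only through the arrays above the level, holds here too. Birc5 rose by 0.77 (adjusted p = 0.00414) and Cdca3 by 0.47 (adjusted p = 0.00743). Chaf1b rose by 0.30, and its 8 DMF179.2 values all lay above the vehicle values, and 3.12% of all genes tested did not overlap. Pcna at 0.08, Mki67 at 0.38 and Top2a at 0.29 did not pass.

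MEF79.2 raised 4 of 42 members in kidney, of which 21 were tested, and lowered 0, where 8.75% of all genes tested rose. They were Tyms (0.30, adjusted p = 0.000433), E2f1 (0.34, adjusted p = 0.00138), Mcm6 (0.41, adjusted p = 0.00326) and Tk1 (0.47, adjusted p = 0.0284). Mcm6 spanned 7.60 to 8.18 (median 7.94) in MEF79.2 and 7.35 to 7.56 (median 7.45) in vehicle, without overlap, as for 4.38% of all genes tested. Pcna at 0.11, Mki67 at 0.24 and Top2a at -0.04 did not pass.

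DMF100 called 2 of 42 members in kidney, of which 21 were tested, a share near the background, since 8.09% of all genes tested were called. Tyms rose by 0.26 (adjusted p = 0.00224), with 9.18 to 9.35 in DMF100 and 8.79 to 9.16 in vehicle. Mcm7, another helicase subunit, fell: it spanned 7.02 to 7.33 (median 7.24) in DMF100 and 7.37 to 7.65 (median 7.49) in vehicle, a difference of -0.28 ± 0.06 (SE, adjusted p = 0.000716). Neither overlapped, and 1.68% of all genes tested did not. E2f1 at 0.15, Pcna at 0.09, Mki67 at 0.08 and Top2a at -0.15 did not pass. All 4 kidney comparisons share the same 7 vehicle arrays. Against these arrays the Nav group, of unknown treatment, also had Tyms, Tk1, Pcna, Kif20a, Cdc20 and Mcm7 called higher and Mcm2 lower. Its median difference was 0.07, with 33 of 42 members higher, and its share of all genes called is given with that group below.

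**Figure D5:**
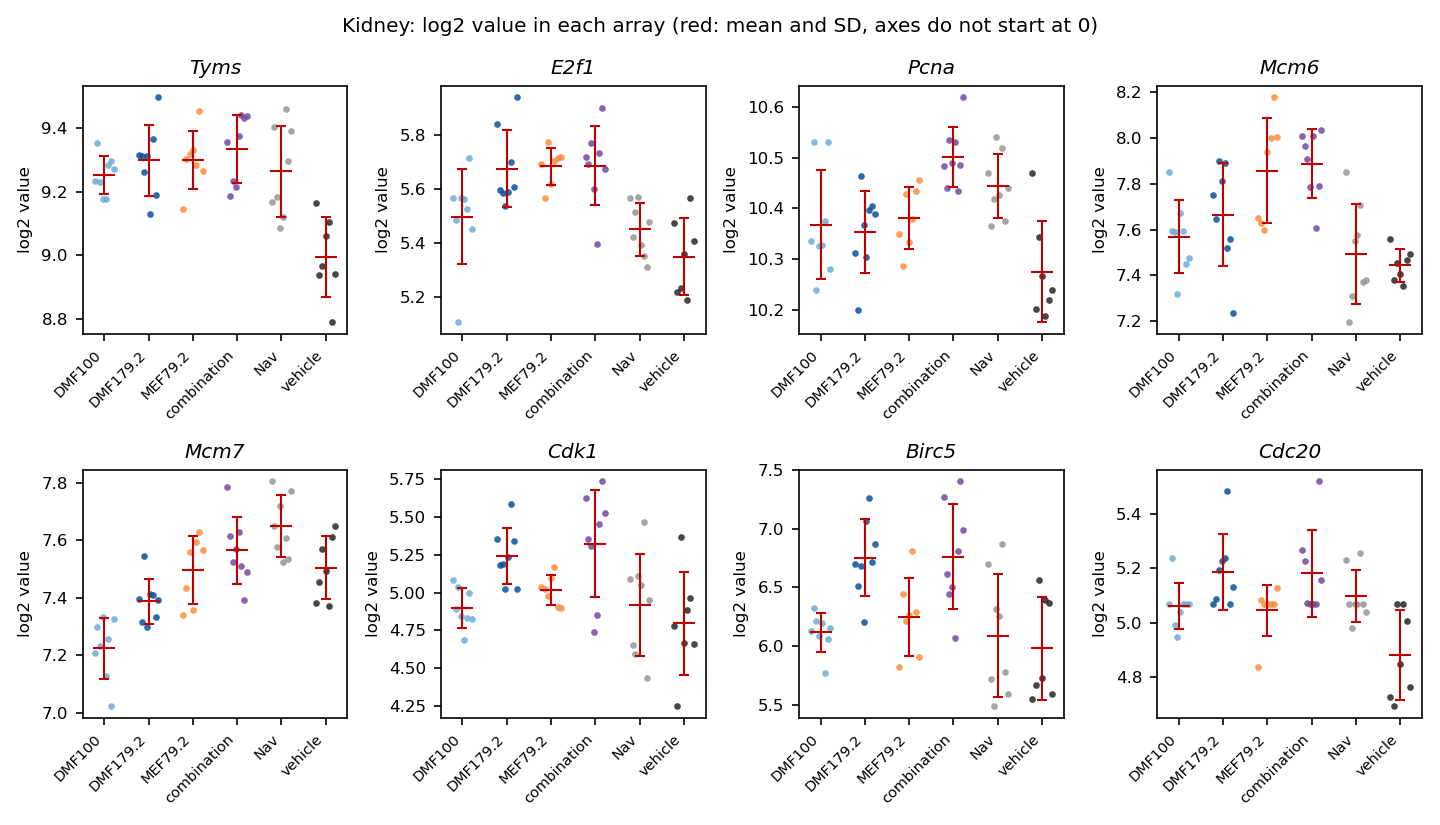
Log2 value of 8 members in each kidney array, by group, with the group mean and SD in red. Tyms lies above all or nearly all vehicle points in each treatment, Mcm7 is low in DMF100, and many Cdc20 points share the value 5.07.

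Of 43 other mitosis genes, of which 17 were tested, 8 rose and 1 fell in combination kidneys, where 17.7% of all genes tested rose: Cks1b (0.39), a CDK subunit, Spc25 (0.33), of the kinetochore, and Pttg1 (0.12), securin, rose, and Ect2 (-0.67), which acts in cytokinesis, fell. Of 32 other replication genes, 21 of them tested, 7 rose, among them Rpa2 (0.29), Pole2 (0.40), Gins1 (0.39) and Orc6 (0.23). Of 17 G1 and retinoblastoma family genes 5 rose and 2 fell, with Cdk4 (0.17), E2f4 (0.28), Rbl1 (0.23) and Cdk2 (0.22) among those that rose. The share of all genes that fell against vehicle in kidney is not given here, so genes that fell are listed only. The p53 targets Zmat3 (0.26) and Mdm2 (0.14) rose, 2 of 16 inhibitor and p53 target genes. In DMF179.2 kidneys, where 10.6% of all genes tested rose, 4 of the mitosis genes rose and 1 fell, with Cks1b (0.39), Spc25 (0.38), Cks2 (0.26) and Mad2l1 (0.38), and 4 replication genes rose, Rpa2 (0.30), Pola2 (0.22), Pole2 (0.26) and Gins1 (0.26).

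Of 10 markers of tubule injury and regeneration, 7 of them tested, 2 rose under the combination, Fgg (0.63) and Lcn2 (0.98), where 17.7% of all genes tested rose. Under DMF179.2, where 10.6% did, 4 rose, Fgg (0.92), Fga (0.66), Fgb (0.93) and Lcn2 (1.31). The list mean ran from 7.07 to 7.60 in combination kidneys and from 7.17 to 7.99 in DMF179.2 kidneys, against 6.85 to 7.19 in vehicle kidneys. Havcr1, the defining injury marker, averaged 2.23, near the lowest value of the tissue. Of 8 proximal tubule markers the combination raised 2 and lowered 3, with Pck1 (-0.55), Slc22a6 (0.21), Slc5a12 (-0.38) and Aqp1 (-0.19). Without the share of all genes that fell, lowered markers are listed only, here and below. Of 6 megakaryocyte markers Itga2b (0.24) and Pf4 (0.33) rose. Of 15 red cell precursor markers 0 were called under the combination and 1, Tfrc (0.35), under DMF179.2, and Gata1, Ank1, Kel, Hemgn and Rhag stood at the lowest value in all 46 arrays. Csf1r of 10 macrophage markers fell by 0.37. The part of these cells in the result was not tested.

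Second probe sets of kidney members were mostly too low to compare. Above the tissue's median signal, 3 of 3 gave the same sign under the combination, and a low probe set of Cdt1 went the other way (0.04 in the probe set used, -0.03 and -0.01 in the others). Mcm2 went opposite ways under DMF179.2 (-0.05 and 0.31) and DMF100 (-0.21 and 0.27). Other low probe sets with an opposite sign, at most 0.04 in size, were those of Cdt1, Foxm1 and Top2a under DMF179.2, of Foxm1, Nusap1 and Tpx2 under DMF100, and of Bub1b, Hells and Tpx2 under MEF79.2.

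In mesenteric lymph node the module went the other way. Under DMF179.2 6 of 42 members fell and 0 rose, where 1.73% of all genes tested fell. The median difference was -0.33, against 0.00 over all genes, 41 of 42 were lower, and Chaf1b at 0.07 was the exception. Under the combination 8 of 42 fell and 0 rose, where 12.7% of all genes tested were called and 3.57% fell, with a median of -0.25 and 39 lower. Mcm4, Hells, Aurkb, Ccna2 and Nusap1 were called in both comparisons, which share the 8 vehicle arrays. Of these, Mcm4 and Hells were also called lower in the Nav group, of unknown treatment, against the same vehicle arrays.

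Mcm4, a helicase subunit, spanned 9.72 to 10.15 (median 10.04) in DMF179.2 nodes and 10.19 to 10.65 (median 10.27) in vehicle nodes. All 8 DMF179.2 values lay below the vehicle values, where 0.75% of all genes tested did not overlap, and the difference was -0.32 ± 0.07 (SE, adjusted p = 0.00585). In combination nodes Mcm4 spanned 9.76 to 10.24 (median 10.04), a difference of -0.31 (adjusted p = 0.0107). Hells, a chromatin remodelling helicase of dividing lymphocytes, spanned 6.32 to 7.54 (median 7.26) in DMF179.2 nodes and 7.41 to 7.95 (median 7.73) in vehicle nodes, a fall of 0.56 (adjusted p = 0.0187). The combination nodes lay at 6.85 to 7.26 (median 7.05), below every vehicle node, with a difference of -0.66 ± 0.16 (SE, adjusted p = 0.0103). Of all genes tested 3.7% did not overlap under the combination.

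Aurkb, the kinase of the passenger complex, spanned 5.82 to 6.84 (median 6.52) in DMF179.2 and 5.94 to 6.69 (median 6.36) in the combination, against 6.48 to 7.79 (median 6.998) in vehicle. It fell by 0.65 (adjusted p = 0.0218) and by 0.72 (adjusted p = 0.0153). Cyclin A2, Ccna2, which acts in S phase and early mitosis, fell by 0.49 under DMF179.2 (adjusted p = 0.0218) and by 0.48 under the combination (adjusted p = 0.0281). Nusap1, a spindle protein, fell by 0.58 (adjusted p = 0.0317) and 0.55 (adjusted p = 0.0437). Birc5 fell by 0.47 under DMF179.2 alone (adjusted p = 0.0332). Cdc6 (-0.48, adjusted p = 0.0393), Tpx2, a spindle assembly factor (-0.55, adjusted p = 0.0414), and Uhrf1, which helps copy DNA methylation (-0.37, adjusted p = 0.0455), fell under the combination alone. Whether these differ between the treatments is given with the compounds, where no member was called.

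Mki67 was lower by 0.43 in each comparison and missed the threshold (adjusted p = 0.0824 under DMF179.2 and 0.0813 under the combination). Top2a was at -0.35 and -0.27, Mcm5 at -0.31 and -0.09, Pcna at -0.07 and -0.03, and E2f1 at -0.05 and -0.10, and none passed. An unadjusted p under 0.05 was seen for 25 members in DMF179.2 nodes and for 15 in combination nodes.

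Of other pathway genes in DMF179.2 nodes, 3 of 43 mitosis genes fell (Cenpa by 0.41, Cep55 by 0.65 and Hmgb2 by 0.36), 2 of 32 replication genes fell (Pola1 by 0.48 and Rpa2 by 0.23), and the E2F repressors E2f7 and E2f8 fell by 0.48 and 0.50. Of 16 CDK inhibitor and p53 target genes 4 rose: Cdkn2b (0.52) and Cdkn1a (0.33), both CDK inhibitors, and Zmat3 (0.24) and Phlda3 (1.16). Of all genes tested 1.73% fell in this comparison, and 57.3% had a higher mean at any p. The share that rose at the threshold is not given here, so the 4 of 16 are listed only. In combination nodes, where 12.7% of all genes tested were called and 3.57% fell, Cep55 (-0.81) and Aspm (-0.79) fell and Pttg1 (0.18) rose. There Pola1 (-0.60) and Slbp (-0.29) fell, E2f2 (-0.44) and E2f8 (-0.54) fell, Cdkn1b (-0.32) fell and Zmat3 (0.19) rose.

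B cell markers moved with the members in DMF179.2 nodes, where 4 of 10 fell: Ralgps2 by 0.43, Spib by 0.29, Cr2 by 0.42 and Cd22 by 0.36. The B cell list ran from 9.21 to 10.15 in DMF179.2 nodes and from 9.94 to 10.30 in vehicle nodes. In combination nodes 0 of 10 were called. Of 7 germinal centre markers 0 were called in either, and Mybl1 was at the lowest value in 41 of 44 arrays. Cd68, of 10 macrophage markers, rose by 0.32 and 0.41, Cd14 rose by 0.34 under the combination, and Pf4 rose by 0.81 in both. The part of these cells in the result was not tested. Above the median signal, 14 of 14 second probe sets gave the same sign in DMF179.2 nodes, as did 12 of 14 in combination nodes. A low probe set of Foxm1 was opposite under DMF179.2 (0.07, with -0.16 in the probe set used). Under the combination other probe sets of Cdt1, Mcm7, Nusap1 and Tyms were at 0.02 to 0.08, with -0.08, -0.11, -0.55 and -0.04 in those used.

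The counts in the node depended on single arrays. Without DMF179.2 replicate 23, 1 member was called under DMF179.2, and without vehicle replicate 4, 15 were. The call of Mcm4 was kept with any 1 array left out, in both comparisons. For the combination the count ran from 3 to 10 when each array was left out in turn, with 10 without vehicle replicate 4. DMF100 and MEF79.2 gave 0 calls among members in this tissue, where 1.85% and 4.75% of all genes tested were called, and their medians were -0.10 and -0.01.

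In jejunum 6 of 42 members, of which 40 were tested, fell under DMF179.2 and 0 rose. This share is near the background, since 27.4% of all genes tested were called and 11.8% fell, and the median of the members was -0.10. Those that fell were mostly mitotic, which at a share near the background is not read as a pattern. Ccna2 spanned 9.71 to 10.15 (median 10.04) in DMF179.2 jejunum and 9.99 to 10.66 (median 10.36) in vehicle jejunum, a difference of -0.31 ± 0.09 (SE, adjusted p = 0.00839). Plk1, a mitotic kinase, fell by 0.40 (adjusted p = 0.0154), Nusap1 by 0.43 (adjusted p = 0.0172), Cdc20 by 0.40 (adjusted p = 0.0388), Mcm4 by 0.31 (adjusted p = 0.0216) and Mki67 by 0.26 (adjusted p = 0.0219). For Mki67 the values ran from 10.34 to 10.81 (median 10.57) in DMF179.2 and from 10.59 to 11.09 (median 10.84) in vehicle, with overlap. Top2a at -0.26, E2f1 at -0.22, Pcna at 0.07 and Mcm5 at 0.01 did not pass.

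Crypt markers were lower in the same arrays, where 27.4% of all genes tested were called and 11.8% fell. Of 9 markers of crypt stem and Paneth cells 4 fell, Smoc2 by 0.58, Lgr5 by 1.33, Prom1 by 0.28 and Mmp7 by 0.83, and the list ran from 8.36 to 9.01 in DMF179.2 and from 8.89 to 9.36 in vehicle. Ccnd1, cyclin D1, fell by 0.74, while Lin54 (0.40), Rbl2 (0.33) and E2f3 (0.28) rose. Of 43 other mitosis genes 4 fell (Cdc25b by 0.46, Stmn1 by 0.24, Cks1b by 0.34 and Cks2 by 0.24). Of 32 replication genes 3 rose and 2 fell, with Gmnn (0.20), Brca1 (0.38), Slbp (-0.23) and Dut (-0.32). Counts of this size are near or below the shares of all genes and are not read as a pattern. Of 16 inhibitor and p53 target genes Cdkn2d fell by 0.35 and Ccng1 rose by 0.19. The mean signal of the hybridisation controls was 11.86 ± 0.06 in DMF179.2 and 12.00 ± 0.02 in vehicle jejunum (SD, n = 7 and 8, two-sided exact permutation p = 0.000155, adjusted p = 0.00272). The part of the crypt cells in the result was not tested.

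The jejunum count also rested on single arrays: it was 1 (Ccna2) without DMF179.2 replicate 21 and 9 without vehicle replicate 4. Second probe sets above the median signal gave the same sign in 14 of 18 cases. Opposite values were seen for Nusap1 (-0.43 in the probe set used and 0.11), Hells (0.26 and -0.10), Tpx2 (-0.02 and 0.12) and Ttk (-0.10 and 0.08), and for low probe sets of Bub1b (0.04, with -0.11 in that used) and Tyms (-0.04 to -0.01, with 0.06). DMF100, MEF79.2 and the combination gave 0 calls among members, where 0.996%, 0.111% and 3.84% of all genes tested were called. Under MEF79.2 38 of 42 members were lower, with a median of -0.18 and 10 at an unadjusted p under 0.05.

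In inguinal lymph node Tk1 fell under DMF100, the only call among members under any of the 4 treatments in that node, where 1.69% of all genes tested were called. It spanned 7.79 to 8.09 (median 7.88) in DMF100 and 8.04 to 8.33 (median 8.16) in vehicle, a difference of -0.26 ± 0.07 (SE, adjusted p = 0.0394). The Tk1 call was kept in 5 of 9 alternative settings. It was lost with no filter, with arrays centred on their medians, with only the compared groups fitted and without the array of lowest correlation. E2f1 at 0.03, Mcm5 at -0.04, Mki67 at -0.01, Top2a at -0.09 and Pcna at 0.08 did not pass. Ralgps2, of 10 B cell markers, fell by 0.32 there. Probe sets of 12 members went opposite ways in this comparison, by at most 0.14 in size: Aurkb, Ccna2, Foxm1, Gins2, Hells, Kif11, Mcm2, Mcm5, Mybl2, Rrm2, Tyms and Uhrf1. The other 3 treatments called 0.379% (DMF179.2), 0.00947% (MEF79.2) and 0.0474% (the combination) of all genes tested.

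Blood and brain gave 0 calls among members by limma under all 4 treatments. In blood DMF100 called 0.26% of all genes tested, DMF179.2 called 1.34%, and the other treatments called 0%. Members with an unadjusted p under 0.05 numbered 4 in DMF100 blood, 3 in DMF179.2 blood, 3 in MEF79.2 blood and 0 in combination blood. The closest was Mcm4 under DMF179.2, at -0.23 (adjusted p = 0.0819). In brain the shares in the same order of treatments, the combination last, were 0.4%, 1.09%, 0.362% and 0.297%, and 0 members had an unadjusted p under 0.05 in any of the 4. With 14 members above the level for testing, brain could show a change in few of them.

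Whether a member responded differently among tissues was tested by the interaction of tissue and treatment over the 10 members tested in all 7 tissues. Under DMF179.2, 9 of the 10 differed, all but Kif20a, where 34% of all genes tested differed. Under the combination Birc5, E2f1 and Mcm6 differed (13.3% of all genes), under MEF79.2 Mcm6 (12.4%), and under DMF100 none (3.69%), with 0 at an unadjusted p under 0.05. The fit takes arrays of different tissues as independent, although arrays with the same number may come from the same mouse.

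Between pairs of tissues, the widest contrast was that of spleen with mesenteric lymph node under DMF179.2. Of 40 members tested in both, 30 had a higher response in spleen and 0 a lower one, where 6.71% of all genes tested differed. For Cdc6 the response in spleen exceeded that in the node by 1.97 (adjusted p = 0.00312), for Cdca5 by 1.60, for Mcm2 by 1.14 and for Cdt1 by 0.87. Against spleen, 23 of 40 members had a lower response in jejunum (11.5% of all genes). In kidney 4 of 21 had a lower response than in spleen, near the share of all genes (17.7%), so these 4 are not read as a difference of the module. Against jejunum, 7 of 21 members had a higher response in kidney (17.6%), led by Birc5 at 0.91. Against mesenteric node, Birc5 (1.25), Ccna2 (0.83), Cdca3 (0.94) and Uhrf1 (0.69) had a higher response in kidney (2.49%).

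Under the combination, 7 members had a higher response in kidney than in inguinal node (2.79% of all genes), among them Mcm6 (0.52), Tk1 (0.89) and Birc5 (0.99). Against mesenteric node 4 were higher in kidney: Birc5 (1.19), Mcm4 (0.39), Mcm6 (0.55) and E2f1 (0.43), where 2.14% of all genes differed. Under MEF79.2, Mcm6 (0.62), Tk1 (0.93), Gins2 (0.48) and Tyms (0.79) had a higher response in kidney than in spleen (4%).

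DMF and MEF are esters of the same acid: DMF carries a methyl group at both acid ends, while MEF carries an ethyl group at a single end and was given as salts. MEF79.2 and DMF100 differ in dose, so their values were given side by side above and were not compared. In all, 3 pairs of groups were compared in each tissue, 21 over the 7 tissues: DMF179.2 with DMF100, the combination with DMF100, and DMF179.2 with the combination. The combination equals DMF179.2 in total mass per kg. Adjusted p-values below are within a comparison unless said to run over all 21.

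The higher dose of DMF had higher values than the lower one in spleen for 42 of 42 members, with a median of 0.57. Of these 2 passed, Cdca5 at 1.12 ± 0.27 (SE, adjusted p = 0.0343) and Mcm2 at 0.70 (adjusted p = 0.0453), where 2.56% of all genes tested were called. Cdca5 spanned 8.07 to 9.24 in DMF179.2 and 6.69 to 8.63 in DMF100. Over all 21 comparisons Cdca5 passed (adjusted p = 0.0269) and Mcm2 did not (0.0543). In kidney Cdca3 was higher by 0.45 at the higher dose (adjusted p = 0.0489, 1.36% of all genes), and in jejunum Cdt1 by 0.34 (adjusted p = 0.00537, and 0.0209 over all 21), where 11.6% of all genes were called. In mesenteric node 0 members were called between doses (0.59% of all genes), with 41 of 42 lower at the higher dose and a median of -0.23.

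Between the combination and DMF100, which lacks the MEF salts, members differed in kidney. Of 42 members 11 were higher in the combination than in DMF100 and 0 lower, where 8.88% of all genes tested were higher. Mcm7 had the smallest adjusted p, 0.000107, and spanned 7.39 to 7.79 (median 7.55) in the combination and 7.02 to 7.33 (median 7.24) in DMF100, a difference of 0.34 ± 0.05 (SE). Mcm2 (0.37), Mcm4 (0.17), Mcm6 (0.32), Gins2 (0.19), Birc5 (0.65), Cdk1 (0.42), Kif20a (0.24), Chaf1b (0.19), Pcna (0.13) and E2f1 (0.19) were the others. Mcm7, Mcm4 and Mcm2 also passed over all 21 comparisons. They were not called between the combination and vehicle. For Mcm7 the combination values overlapped those of vehicle, and DMF100 was called lower than vehicle. Probe sets of Mcm2 went opposite ways under DMF100, as given above. In spleen 0 members were called between the combination and DMF100, and 0% of all genes were. For Mki67 in spleen the difference was 0.31, with a 95% interval from -0.32 to 0.93, which includes 0 (n = 8 arrays each). In mesenteric node 0 members were called, where 8.81% of all genes were, and in jejunum Cdt1 (0.31) missed within the comparison (adjusted p = 0.0754) and passed over all 21 (0.0316), where 0.157% of all genes were called.

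At equal total mass, DMF179.2 exceeded the combination in spleen for 6 members, where 5.64% of all genes tested were called and 4.1% were higher: Cdt1 (0.45), Chaf1b (0.68), Ttk (0.57), Mcm2 (0.66), Cdca5 (0.90) and Ccne2 (0.92). None of the 6 passed over all 21 comparisons. In kidney 3 members were lower in DMF179.2 than in the combination, Kif20a (-0.29, adjusted p = 0.00862, and 0.0262 over all 21), Pcna (-0.15) and Mcm7 (-0.18), where 4.97% of all genes were lower. In mesenteric node and jejunum 0 members differed between DMF179.2 and the combination, where 0.00937% and 0% of all genes were called. In blood, brain and inguinal node 0 members were called in any of the 3 pairs. Of all genes tested, brain called 0.0186% between the DMF doses, 0.0929% between the combination and DMF100 and 0.00929% between DMF179.2 and the combination, inguinal node called 0.00947%, 0.18% and 0%, and blood called 0% in each. For Mcm4 and Ccna2, the 95% interval of the difference between DMF179.2 and the combination was -0.17 to 0.15 in mesenteric node for Mcm4 and -0.31 to 0.04 in jejunum for Ccna2.

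The Nav group, whose treatment is unknown here, was set against vehicle for the record. In mesenteric node Nav had 7 members higher (Foxm1, Gins2, Mcm3, Kif20a, Chaf1b, Tyms and Tk1) and 3 lower (Mcm4, Mcm2 and Hells), where 50.6% of all genes tested were called. In kidney 6 were higher (Tyms, Kif20a, Pcna, Tk1, Cdc20 and Mcm7) and Mcm2 was lower, where 49.8% of all genes were called. In jejunum Ccne2 was higher by 0.31 (7.87% of all genes), and in spleen 0 of 42 were called (13.4%). Blood (0.0193% of all genes), brain (3.83%) and inguinal node (0.0189%) had 0 called members. The hybridisation controls differed too, at 11.89 in Nav and 11.71 in vehicle mesenteric nodes and 12.01 in Nav and 11.82 in vehicle kidneys.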

How the data were processed

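Total RNA of 7 tissues was measured on 308 arrays. The deposited values are on a log2 scale, normalized by the authors in each tissue apart. RMA, GCRMA, R 2.11.1 and limma 3.4.5 are named per the submitters' processing notes, which do not give their roles. In the probe annotation, 28898 of 45141 probe sets had a single gene symbol, 551 had several and 15692 were unnamed.

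Each gene was read from its single-symbol probe set of highest mean. Genes above the tissue's median (percentile 50) in at least 5 arrays were tested with limma 3.58.1 (R 4.3.3, with data.table version 1.17.8), 1 fit per tissue over all 6 groups, with Benjamini-Hochberg adjustment at 0.05. Differences are group means on the log2 scale with the SE of the fit. Technical measures were compared by permutation tests. Tissue and treatment interactions were tested in limma. Figures were drawn with matplotlib 3.10.9 in Python 3.11.15. Scripts were tested on simulated data.

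Members and lists were chosen with earlier results of these data known. Named genes are, per role class, the called member of smallest adjusted p and that of largest difference, with Mki67, Top2a, Mcm5, Pcna and E2f1 throughout, members whose probe sets disagree, and up to 4 called genes of each other list. Alternatives were the filter, centring, quantile normalization, array weights, averaged probe sets, fits of the compared groups alone, covariates and arrays left out. The red cell precursor covariate and the mesenteric node arrays left out in turn were chosen after seeing the data.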

Additional observations from a re-analysis of the deposited data

Results flagged for a closer look

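In 8 of 136 groups, 1 array stood apart from the rest of its group by Dixon's test, and chance gives about 1 in 20. The mean of the 42 members was 4.453 in brain Nav replicate 40 (others 4.527 to 4.562), 8.005 in inguinal node DMF100 replicate 15 (others 7.186 to 7.552), 7.713 in jejunum DMF179.2 replicate 21 (others 7.999 to 8.21) and 4.921 in kidney MEF79.2 replicate 29 (others 4.814 to 4.851). Cdc20 was 5.487 in kidney DMF179.2 replicate 22 (others 5.068 to 5.239) and 5.522 in kidney combination replicate 38 (others 5.068 to 5.27). Cdca3 was 6.583 in kidney combination replicate 32 (others 5.356 to 5.887). Tpx2 was 7.227 in mesenteric node vehicle replicate 4 (others 7.872 to 8.267).

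The response of members differed among tissues by the interaction test. Among all 7 tissues it differed for 9 of 10 members under DMF179.2, for 1 under MEF79.2 and for 3 under the combination. Under DMF179.2 the pairs of tissues differed as follows, with members tested and the share of all genes that differed in brackets. For spleen, 30 members differed from mesenteric node (of 40, 6.71%), 23 from jejunum (of 40, 11.5%) and 8 from brain (of 14, 11.2%). Also for spleen, 6 differed from blood (of 35, 2.32%), 4 from kidney (of 21, 17.7%) and 1 from inguinal node (of 39, 0.0693%). For kidney, 7 differed from jejunum (of 21, 17.6%) and 4 from mesenteric node (of 21, 2.49%). Also for kidney, 1 differed from brain (of 10, 2.77%) and 1 from inguinal node (of 21, 1.39%). For jejunum, 4 differed from mesenteric node (of 39, 17.8%) and 1 from blood (of 35, 3.57%). Hells differed between brain and blood (of 13, 1.03%) and between mesenteric node and brain (of 13, 0.485%), 1 member in each. Spleen with kidney, and jejunum with mesenteric node or blood, were near or below the share of all genes. These counts are not read as a difference of the module.

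Members tested and the share of all genes that differed stand in brackets here too. Under MEF79.2 the response in kidney differed from that in spleen for 4 members (of 21, 4%) and in brain for 2 (of 10, 2.19%). It differed from that in inguinal node for 2 (of 21, 0.989%) and in jejunum for 1 (of 21, 3.53%). Under the combination the response in kidney differed from that in inguinal node for 7 members (of 21, 2.79%) and in mesenteric node for 4 (of 21, 2.14%). It differed from that in jejunum for 4 (of 21, 9.76%), in brain for 3 (of 10, 6.63%) and in blood for 2 (of 21, 1.04%). The response in mesenteric node differed for 1 member each from that in brain (of 13, 5.48%), inguinal node (of 38, 0.136%), spleen (of 40, 4.26%) and jejunum (of 39, 6.32%). With spleen and jejunum this is below the share of all genes.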

How the results depend on the processing

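Of 1655 recomputed values of named members, 1406 kept their direction and side of the threshold, 246 lost the call and 3 reversed. Of 422 recomputed counts of called members, 49 moved by more than 1.5 times. The causes were not tested.

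Without the filter, counts were 0 for inguinal node DMF100, 4 for the mesenteric node combination, 1 for the mesenteric node combination against DMF100, 0 for kidney DMF179.2 against DMF100, 1 for spleen DMF179.2 against DMF100 and 2 for spleen DMF179.2 against the combination. Interactions among tissues were then called for 35 members with DMF179.2, 6 with the combination and 3 with MEF79.2, where more members entered the test. With each array centred on its median, counts were 0 for inguinal node DMF100, 4 for the mesenteric node combination, and 1 each for kidney DMF179.2 against the combination and spleen DMF179.2 against DMF100.

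With array weights, counts were 39 for spleen DMF179.2, 14 for the mesenteric node combination, 7 for kidney MEF79.2 and 1 for jejunum DMF100. With probe sets of a gene averaged, they were 4 for the mesenteric node combination and 1 for kidney DMF100. Fitted on the compared groups alone, they were 34 for spleen DMF179.2 against the combination, 5 for kidney combination against DMF100, and 0 for inguinal node DMF100, kidney DMF179.2 against the combination and spleen DMF179.2 against DMF100. With hybridisation controls as a covariate, jejunum DMF100 and MEF79.2 had 1 each.

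With the mean of the red cell precursor markers as a covariate, 1 member was called in DMF179.2 spleen, and Ccna2 (-0.085), Birc5 (-0.042) and Aurka (-0.017) reversed. Without the array of lowest correlation, counts were 15 for spleen DMF179.2, 1 for mesenteric node DMF179.2, 5 for its combination and 0 for inguinal node DMF100. With each array left out in turn, counts ran from 15 to 34 in DMF179.2 spleen, 1 to 15 in DMF179.2 and 3 to 10 in combination mesenteric node, 1 to 9 in DMF179.2 jejunum, 7 to 9 in DMF179.2 and 11 to 13 in combination kidney, and 0 to 0 in MEF79.2 blood.

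No paired analysis was possible within a tissue because its groups share no sample numbers. Across tissues, 532 of 866 pairs of same-numbered arrays correlated over 0.1. The median was taken for each pair of tissues, and the median of those medians was 0.14. With the sample number as a replicate block, interactions were called for 9 members with DMF179.2, 4 with the combination, 1 with MEF79.2 and 0 with DMF100. Members below the filter on low signal were not tested, which left 14 of 42 tested in brain and 21 of 42 in kidney.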
